A study of Sus scrofa with 2 samples.

Results

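The genes described here are 50 genes of glycolysis and of the iron-dependent response to low oxygen, in the hippocampus of Rongchang piglets (Sus scrofa). They were taken by symbol, with no filter on their values, from a table of 25322 Ensembl pig gene IDs. The list was chosen with earlier results of these data known. An ID was paired with the symbol for 40 of the 50, and 37 of these 40 had a mean of at least 1 FPKM over both samples. FPKM counts fragments relative to transcript length and to all mapped fragments, so that levels of different genes can be set side by side within a sample. The remaining 10 symbols (ALDOA, LDHB, SLC2A1, SLC2A3, SLC16A1, VHL, EGLN2, BNIP3, DDIT4 and AK4) had no ID paired with them in the table and were not analysed here.

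RNA sequencing of 1 iron dextran sample was set against 1 control sample. Both came from the hippocampus of Rongchang animals at the piglet stage, with a genotype given as "wide type" in the labels. Iron dextran, iron bound to the polysaccharide dextran, is the usual injected iron supplement of newborn pigs, and the comparison asked what it did to the hippocampal transcriptome. The sources used here do not give the dose, route or timing of the iron, the treatment of the control piglets, or how old or how many the animals were, and each sample label carries 2 names without saying what these stand for. With 1 sample per group there was no replicate error, no test was made, and every difference below is a difference between these libraries without a replicate check. The FPKM values summed to 850165 in the iron dextran sample and 924070 in the control sample, and the number of sequenced fragments is unknown, so no counting interval is given.

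Glycolysis splits glucose into pyruvate in the cytosol, and in the brain it supplies both neurons and astrocytes. Pyruvate is then either reduced to lactate or oxidised in mitochondria, a branch point set by lactate dehydrogenase and by kinases that switch off pyruvate dehydrogenase. Many glycolytic genes are targets of the hypoxia-inducible factors (HIF), transcription factors made of an oxygen-labile alpha subunit and a stable partner, ARNT. The alpha subunits are marked for destruction by prolyl hydroxylases (EGLN proteins) that need oxygen, 2-oxoglutarate and ferrous iron, which is the textbook link between iron and this pathway. HIF activity is controlled mainly through the stability of the alpha protein, which RNA levels do not measure.

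Members of the list differed little between iron dextran and control. Differences are those of log2(FPKM + 1), with control subtracted from iron dextran, a scale that understates the change of low genes, and ratios are of FPKM as deposited. Of the 37 members, 0 were at least 1.5-fold higher and 0 at least 1.5-fold lower on that scale, where 2.47% and 1.47% of all 12557 genes with a mean of at least 1 FPKM were. As plain ratios of iron dextran to control, 2 of the 40 members with an ID were past 1.5-fold, PFKFB2 at 1.88 and the very low HIF1AN at 0.631. The share of all genes past that plain ratio was not counted. Adding 0.01 in place of 1 to each FPKM comes close to a plain ratio. By that measure, 4.77% of the 12557 genes were at least 1.5-fold higher and 2.84% lower. At least 25% higher on the log2(FPKM + 1) scale were 3 members, PFKFB2, HIF1A and ARNT, and 8.81% of all genes. Lower by the same fold were 0 members and 5.96% of all genes. The median difference of the 37 members was −0.03, and that of all genes was −0.0046. The single differences ran from −0.17 (GAPDH) to 0.52 (PFKFB2). In bulk tissue, fewer cells of a type and less RNA per cell cannot be told apart.

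**Figure D1:**
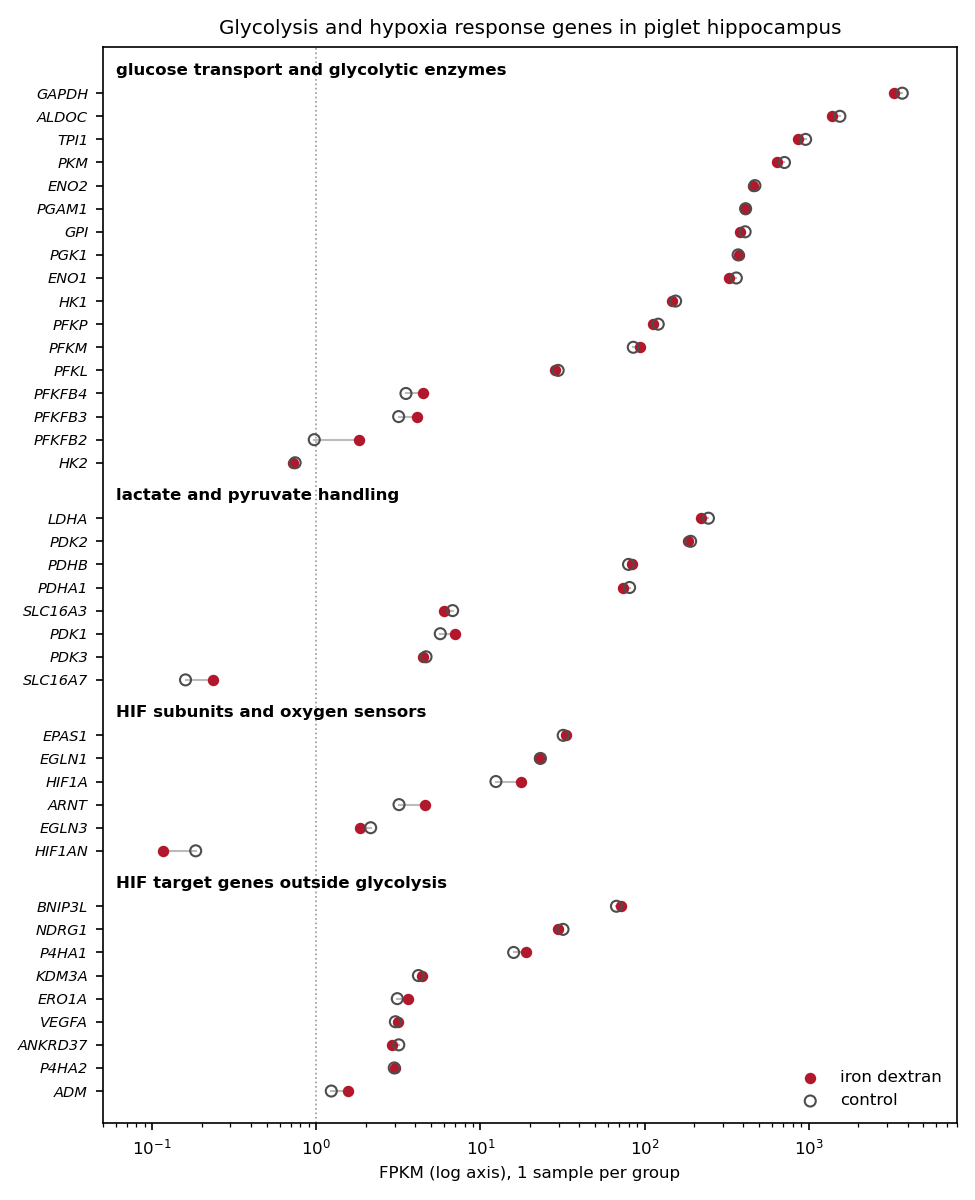
FPKM of the 40 members with an ID in the iron dextran sample (filled circles) and the control sample (open circles), on a log axis, grouped by role and ordered by level. The pairs of circles nearly coincide for most members and stand furthest apart for low genes such as PFKFB2 (1.83 FPKM in iron dextran and 0.972 in control), SLC16A7 and HIF1AN; the dotted line marks 1 FPKM.

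The enzymes that carry the main flow of glycolysis were among the most abundant transcripts of the tissue. GAPDH, which oxidises glyceraldehyde phosphate, had 3305 FPKM in iron dextran and 3713 in control and ranked 23 by mean level among the 12557 genes. ALDOC, the brain form of aldolase and a marker of astrocytes, had 1382 FPKM in iron dextran and 1547 in control, at rank 44. TPI1, which interconverts the triose phosphates, had 855 FPKM in iron dextran and 957 in control. All 3 lay slightly lower in iron dextran, with ratios of 0.890, 0.893 and 0.893 that differ from each other by far less than from 1.

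PKM, the pyruvate kinase of the last step, had 645 FPKM in iron dextran and 711 in control, a ratio of 0.907. ENO1, the ubiquitous enolase, had 325 FPKM in iron dextran and 362 in control, a ratio of 0.898. ENO2, the enolase of neurons, had 458 FPKM in iron dextran and 469.9 in control, a ratio of 0.976. The 2 enolases thus stood slightly further apart in iron dextran, where ENO2 was 1.41 times ENO1, than in control, where it was 1.298 times ENO1.

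GPI, which turns glucose phosphate into fructose phosphate, had 383 FPKM in iron dextran and 409.7 in control. PGK1, the first step that yields ATP, had 373 FPKM in iron dextran and 371 in control, a ratio of 1.006. PGAM1, the phosphoglycerate mutase between PGK1 and enolase, had 407 FPKM in iron dextran and 412 in control. PGK1 and PGAM1 were therefore nearly level between the samples, and PGK1 was the 1 enzyme above 100 FPKM that was not lower in iron dextran as deposited. Values of GAPDH, PGK1, PGAM1, ENO1 and LDHA are uncertain to the extent that processed gene copies, which these genes have in mammalian genomes, took or shared their reads.

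The hexokinase and phosphofructokinase genes, of the entry and commitment steps, each had lower levels than those measured from aldolase to pyruvate kinase. HK1, the hexokinase of brain mitochondria, had 146 FPKM in iron dextran and 154 in control, while HK2, the inducible hexokinase and a HIF target, had 0.716 FPKM in iron dextran and 0.743 in control, below the limit of a mean of 1. HK1 made up 99.5% of the summed hexokinase FPKM in both samples. GAPDH stood 22.6 times above HK1 in iron dextran and 24.03 times above it in control. Over the 15 enzymes from hexokinase to lactate dehydrogenase that had an ID, FPKM summed to 8736 in iron dextran and 9590 in control, a ratio of 0.911, which is close to the ratio of the whole columns, 0.92. They took 1.03% of the column total in iron dextran and 1.04% in control.

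Phosphofructokinase, the main control point of the pathway, is built from 3 kinds of subunit, and their balance differed slightly between the samples. PFKM, the muscle subunit, had 93.4 FPKM in iron dextran and 85.3 in control, a ratio of 1.095. PFKP, the platelet subunit, had 112 FPKM in iron dextran and 121 in control, a ratio of 0.929. PFKL, the liver subunit, had 28.6 FPKM in iron dextran and 29.7 in control. PFKM made up 39.8% of the summed subunit FPKM in iron dextran and 36.1% in control, and PFKP made up 48.0% in iron dextran and 51.3% in control, while the sum itself was 235 FPKM in iron dextran and 236 in control. These shares do not depend on how the columns are scaled.

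The bifunctional PFKFB enzymes make and break down fructose-2,6-bisphosphate, the strongest activator of phosphofructokinase, and the 3 in the list each had more FPKM in iron dextran than in control. PFKFB2, a form regulated by phosphorylation in heart, had 1.83 FPKM in iron dextran and 0.972 in control, a ratio of 1.88. It had the largest difference of the 37 members, 0.52, and 3.19% of all genes differed by at least as much in that direction. PFKFB3, an inducible form with strong kinase activity and a HIF target, had 4.13 FPKM in iron dextran and 3.18 in control, a difference of 0.30. PFKFB4, another HIF target, had 4.46 FPKM in iron dextran and 3.52 in control, a difference of 0.27. Their summed level was 10.4 FPKM in iron dextran and 7.67 in control, a ratio of 1.36, and the share of PFKFB2 in it was 17.6% in iron dextran and 12.7% in control. The remaining form, PFKFB1, which is not in the list and was named after its values were seen, was under the limit with 0.143 FPKM in iron dextran and 0.178 in control. All of them are low transcripts, and genes between 1 and 10 FPKM had wider differences in general, with quartiles of −0.11 and 0.21 over 6366 genes.

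**Figure D2:**
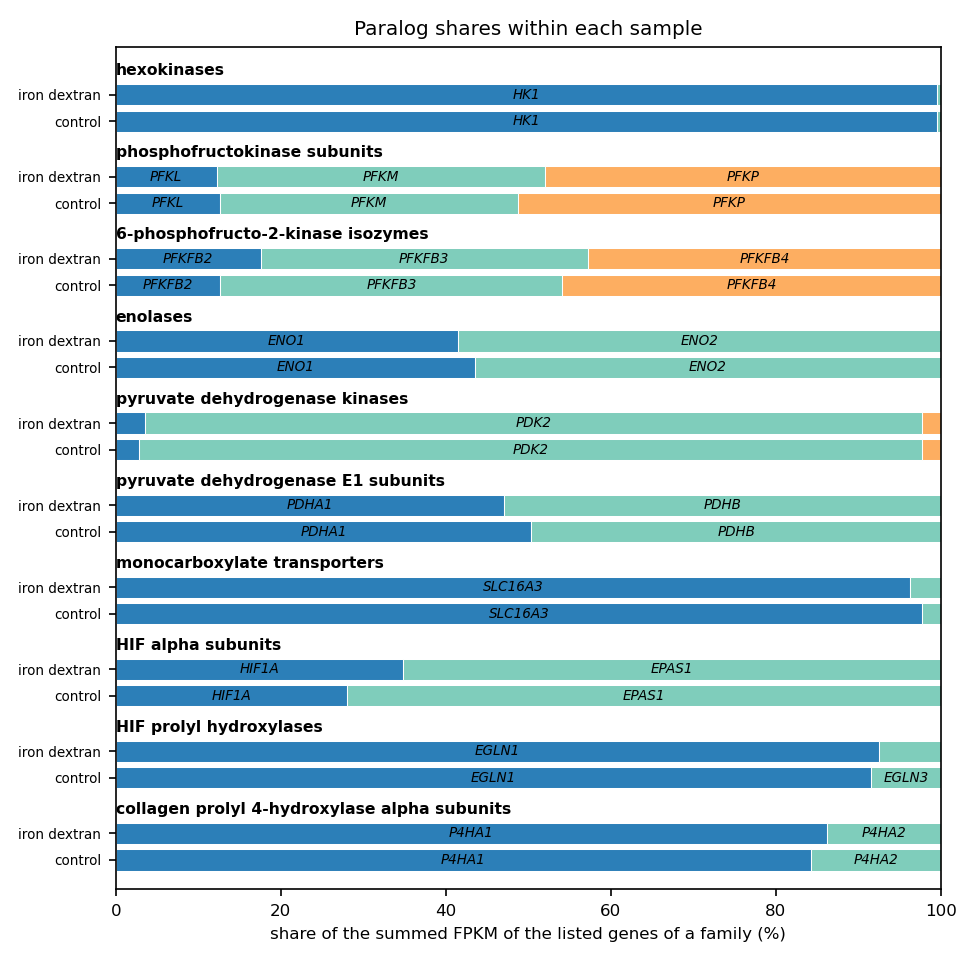
Share of each paralog in the summed FPKM of its family (%), in iron dextran (upper bar of each pair) and control (lower bar), over the genes of the list of 50 that have an ID, so that PDK4 is not included. The bars of most pairs are nearly the same, and the widest shift among those drawn is that of HIF1A against EPAS1, with HIF1A at 34.8% in iron dextran and 28.02% in control.

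At the branch between lactate and oxidation, members lay on both sides of 0. LDHA, the lactate dehydrogenase subunit that HIF induces, had 220 FPKM in iron dextran and 245 in control, a ratio of 0.899 like those of the abundant glycolytic enzymes. SLC16A3, the lactate exporter MCT4, had 5.98 FPKM in iron dextran and 6.77 in control, a ratio of 0.883. SLC16A7, the neuronal monocarboxylate carrier MCT2, was under the limit with 0.233 FPKM in iron dextran and 0.160 in control. PDHA1 and PDHB encode the alpha and beta subunits of pyruvate dehydrogenase E1, which are assembled in equal numbers. PDHA1 had 74.2 FPKM in iron dextran and 81.0 in control, and PDHB had 83.7 in iron dextran and 79.8 in control. Their ratio, PDHA1 to PDHB, was 0.886 in iron dextran and 1.01 in control.

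Among the kinases that inhibit pyruvate dehydrogenase, the hippocampus held mostly PDK2. PDK2 had 185 FPKM in iron dextran and 191 in control, which was 94.2% of the sum of PDK1, PDK2 and PDK3 in iron dextran and 94.8% in control. PDK1, the HIF-induced kinase, had 6.98 FPKM in iron dextran and 5.69 in control, a ratio of 1.23 and a difference of 0.25. PDK3 had 4.46 FPKM in iron dextran and 4.66 in control. PDK4, which is not in the list and is induced by fasting and by glucocorticoids, had 34.8 FPKM in iron dextran and 15.9 in control, a difference of 1.08 that passed 1.5-fold. PDK4 was thus the 1 kinase of the family past the fold, as were 2.47% of all genes in that direction. With PDK4 counted in, PDK2 made up 80.0% of the 4 kinases in iron dextran and 87.9% in control, and PDK4 made up 15.0% in iron dextran and 7.33% in control.

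The HIF subunits gave the next largest differences after PFKFB2. HIF1A, the alpha subunit that drives glycolytic targets, had 17.7 FPKM in iron dextran and 12.4 in control, a ratio of 1.43 and a difference of 0.48. ARNT, the stable partner of the alpha subunits, had 4.597 FPKM in iron dextran and 3.19 in control, a ratio of 1.44 and a difference of 0.42. EPAS1, the alpha subunit also called HIF2A, which is strong in endothelium and astrocytes, had 33.1 FPKM in iron dextran and 31.9 in control, a difference of 0.05. HIF1A and ARNT therefore stood at a nearly constant ratio to each other, 3.85 in iron dextran and 3.89 in control. EPAS1 had the highest level of the 3 in both samples, and HIF1A reached 0.535 of its level in iron dextran and 0.389 in control.

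Of all genes, 3.79% had a difference at least as high as HIF1A and 5.08% at least as high as ARNT. When the 12557 genes were split into 20 bins by mean FPKM, HIF1A was the only 1 of 37 members above the 95th percentile of its bin and 0 lay below the 5th, where by construction 5% of genes lie on each side. With the columns scaled to the same total, HIF1A (0.59) and PFKFB2 (0.599) were at least 1.5-fold higher, as were 3.62% of all genes. That scaling moved the median gene by 0.11, so that part of each value belongs to the scaling.

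Markers of cell types are set beside these results because HIF subunits, ALDOC, ENO2 and the carriers differ between cell types. Of 8 neuronal markers outside the list, 5 were measured, that is with an ID, and summed to 2774 FPKM in iron dextran and 2908 in control. Of 10 markers of hippocampal neurons, 7 were measured and summed to 683 FPKM in iron dextran and 723 in control. Only 5 of these 7 passed the limit of a mean of 1 FPKM. For astrocytes, 5 of 7 markers were measured and summed to 1530 FPKM in iron dextran and 1594 in control, a ratio of 0.96 beside 0.893 for ALDOC. Most of that sum was GFAP, named after its values were seen, with 1145 FPKM in iron dextran and 1275 in control, whereas 3 of the 5 were higher in iron dextran, among them SLC1A3 with 143 FPKM in iron dextran and 116 in control and GJA1 with 216 in iron dextran and 178 in control. Microglial markers, with 5 of 7 measured, summed to 95.5 FPKM in iron dextran and 70.6 in control, a ratio of 1.35 beside 1.43 for HIF1A, and all 5 were higher in iron dextran. Erythroid markers, with 4 of 6 measured and nearly all of it HBB, summed to 519 FPKM in iron dextran and 189 in control. Endothelial markers, with 3 of 6 measured, summed to 19.99 FPKM in iron dextran and 22.2 in control. Oligodendrocyte markers, with 6 of 6 measured, summed to 8610 FPKM in iron dextran and 9792 in control, a ratio of 0.879 beside 0.931 for NDRG1, and 1 of the 6 was higher in iron dextran. Choroid plexus markers, with 2 of 4 measured, both higher in iron dextran, summed to 25.8 FPKM in iron dextran and 21.1 in control. The sums of pericyte and fibroblast markers had ratios of 0.941 and 0.930. No measured marker of these lists was at 0 in both samples. The part of microglia, blood or other cells in the differences of HIF1A, ARNT, PDK1 and the PFKFB genes was not tested.

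**Figure D3:**
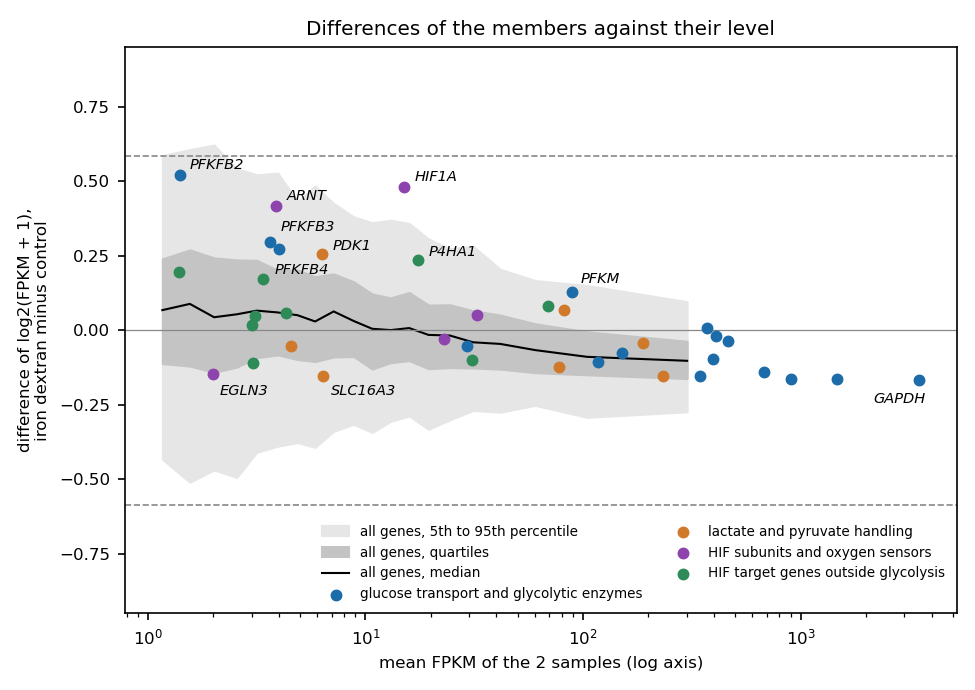
Iron dextran minus control on the log2(FPKM + 1) scale, against mean FPKM on a log axis for the 37 members with a mean of at least 1 FPKM, coloured by role. Grey bands and the black line give the percentiles and median of all 12557 genes in 20 bins of level, drawn at each bin's median level, and the dashed lines mark 1.5-fold. HIF1A (0.48) lies above the outer band, and the abundant enzymes on the right follow the downward course of all genes.

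As deposited, the measured oxygen sensors, which are themselves iron enzymes, did not share the direction of HIF1A. EGLN1 differed little, however, and its direction turned with the scaling. EGLN1, the main prolyl hydroxylase, had 22.7 FPKM in iron dextran and 23.2 in control, a difference of −0.03, or 0.09 with the columns scaled to the same total. EGLN3, a prolyl hydroxylase that HIF induces in turn, had 1.84 FPKM in iron dextran and 2.14 in control, a difference of −0.15. HIF1AN, the asparaginyl hydroxylase also called FIH, was under the limit with 0.116 FPKM in iron dextran and 0.184 in control. EGLN1 made up 92.5% of the sum of EGLN1 and EGLN3 in iron dextran and 91.5% in control. HIF1A stood at 0.78 of the level of EGLN1 in iron dextran and at 0.536 in control.

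The HIF targets outside glycolysis were close to 0. Of 9 members, 7 were above 0 and 2 below, with a range from −0.11 to 0.23. The median was 0.06, and −0.0017 after centring each gene on its bin of level. With the same column total it was 0.16, beside 0.10 for all genes, and 8 of 9 were above 0. P4HA1, a collagen prolyl hydroxylase subunit and itself an iron enzyme, had 18.9 FPKM in iron dextran and 15.9 in control, the largest difference of the group at 0.23. Its paralog P4HA2 had 3.03 FPKM in iron dextran and 2.98 in control. ADM, the vasodilator peptide adrenomedullin, had 1.56 FPKM in iron dextran and 1.23 in control, and ERO1A, an oxidase of protein folding in the endoplasmic reticulum, had 3.64 in iron dextran and 3.12 in control. These 3 targets, P4HA1, ADM and ERO1A, lay above 0 under each scaling tried, centring by bin included, with lowest values of 0.22, 0.11 and 0.11. Of the genes in their bins of level, 9.87%, 34.2% and 32.6% had differences at least as high. P4HA2 turned under 1 of the settings.

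VEGFA, the angiogenic growth factor often read as a sign of HIF activity, had 3.17 FPKM in iron dextran and 3.03 in control, a ratio of 1.04. BNIP3L, a receptor for the removal of mitochondria, had 71.3 FPKM in iron dextran and 67.4 in control, the highest level of the group. KDM3A, a histone demethylase that needs iron, had 4.40 FPKM in iron dextran and 4.19 in control. The ratios of these 3 genes were 1.04, 1.06 and 1.05. NDRG1, a stress-induced gene also known from myelinating cells, had 29.6 FPKM in iron dextran and 31.8 in control, and ANKRD37, an ankyrin repeat gene, had 2.88 in iron dextran and 3.18 in control. These 5 targets lay on both sides of 0. Under each scaling tried, BNIP3L stayed above 0 (lowest value 0.07) and ANKRD37 stayed below it (highest value −0.02). VEGFA, KDM3A and NDRG1 each turned under 1 of the settings. On the scale of log2(FPKM + 1), 0 of the 9 differed by 25% or more, beside 8.81% of all genes higher and 5.96% lower.

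As deposited, members at higher levels were more often below 0, as were all genes. Of 13 members with a mean of at least 100 FPKM, 12 were below 0 and 1 above, with a median of −0.11, and the 979 genes at that level had a median of −0.10, with 18.3% above 0. With the columns scaled to the same total, 6 of the 13 were below 0 and 7 above. Between 10 and 100 FPKM, 6 of 10 members were above 0, beside 42.1% of 5212 genes. Between 1 and 10 FPKM, 10 of 14 members were above 0, beside 59.4% of 6366 genes. With the same total, 9 of the 10 and 11 of the 14 were above 0. Members of at least 100 FPKM were thus still the most often below 0. That scaling put the median of all 12557 genes at 0.10. The share of all genes above 0 at each level was not counted under it, so these same-total counts have no background beside them. The median of the 16 glycolysis members past the limit, which hold no glucose transporter, was −0.06 as deposited. It was 0.05 with the same total, beside 0.10 for all genes, and 0.01 after centring each gene on its bin. Its direction thus turned under both.

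The neighbouring pathways, listed by annotation but with earlier results known, added 171 genes, of which 132 had an ID and 104 passed the limit. On the log2(FPKM + 1) scale PDK4 alone was 1.5-fold higher and 0 were 1.5-fold lower, beside 2.47% and 1.47% of all genes. As plain ratios PDK4 and ANGPTL4 (1.504) were higher and SLC45A1 (0.637) was lower by that much. Adding 0.01 to each FPKM, which comes close to a plain ratio, put 4.77% of all genes higher and 2.84% lower. The median over the 104 was −0.02, with 47 above 0 and 57 below. With the same column total 71 were above 0 and 33 below, and the median was 0.09, beside 0.10 for all genes. Counts in the lists that follow are of genes that passed the limit. In the tricarboxylic acid cycle, 10 of 15 genes were below 0 (median −0.09), with SUCLG1, a subunit of succinate-CoA ligase, at 182 FPKM in iron dextran and 229.9 in control. In the pentose phosphate pathway, 4 of 6 were below 0 (median −0.11), with TKT, the transketolase, at 171 in iron dextran and 193 in control. With the same column total, both medians turned to the other side of 0, at 0.02 and 0.0042.

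Glycogen metabolism had 9 of 17 genes above 0 and 8 below (median 0.03), and 14 above 0 with the same column total. That scaling put the median of all genes at 0.10. GBE1, the branching enzyme of glycogen, had 7.87 FPKM in iron dextran and 5.66 in control, and PHKA2, a phosphorylase kinase subunit, had 4.67 in iron dextran and 6.71 in control. Of 10 other glycolytic isozymes, 7 were below 0 (median −0.14), with HK3, a hexokinase known from myeloid cells, at 3.99 FPKM in iron dextran and 5.94 in control and PGAM2, the muscle mutase, at 14.1 in iron dextran and 17.8 in control. Of 8 genes for the entry of pyruvate into mitochondria, 5 were above 0 (median 0.12), and besides PDK4 the phosphatase PDP1, which reactivates pyruvate dehydrogenase, had 7.71 FPKM in iron dextran and 6.48 in control. Of 12 other glucose and monocarboxylate carriers with an ID, 6 passed the limit and these 6 were below 0 (median −0.14), while with the same total 4 were below 0 and 2 above (median −0.05). Among them were SLC45A1 at 0.797 FPKM in iron dextran and 1.251 in control and SLC16A6 at 1.06 in iron dextran and 1.38 in control.

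Other HIF targets were again mixed. Of 20 with an ID, 15 passed the limit, with 10 above 0 and 5 below (median 0.08), and with the same column total 12 were above 0 (median 0.20). That scaling put the median of all genes at 0.10, and centred by bin of level the median of the 15 was 0.09. On the log2(FPKM + 1) scale 0 of the 15 were past 1.5-fold, beside 2.47% of all genes higher and 1.47% lower. ANGPTL4, an inhibitor of lipoprotein lipase, had 3.98 FPKM in iron dextran and 2.65 in control. TFRC, the transferrin receptor, whose RNA is also destabilised when cells hold iron, had 5.43 FPKM in iron dextran and 7.98 in control, the largest difference of this list at −0.48. Of 10 partners and regulators of the HIF subunits, 4 were above 0 and 6 below (median −0.05, and 0.06 with the same column total). CITED2, which competes with HIF for a co-activator and is itself a HIF target, had 22.8 FPKM in iron dextran and 16.5 in control, and its paralog CITED1 had 18.6 in iron dextran and 24.8 in control, so the pair lay on opposite sides of 0.

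The other dioxygenases that need iron and 2-oxoglutarate lay on both sides of 0, with 12 of 21 above 0 and 9 below (median 0.04), and with the same column total 16 were above 0 and 5 below (median 0.15). That scaling put the median of all genes at 0.10, and centred by bin of level the median of the 21 was 0.0018. None of the 21 was past 1.5-fold, beside 2.47% of all genes higher and 1.47% lower on the log2(FPKM + 1) scale. PLOD1, a lysyl hydroxylase of collagen, had 21.4 FPKM in iron dextran and 30.6 in control, the largest difference at −0.50. RIOX1, a ribosomal oxygenase, had 6.47 FPKM in iron dextran and 9.05 in control. Both lay below 0, while of the 2 collagen prolyl hydroxylase subunits of the main list P4HA1 lay above it and P4HA2 near it.

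**Figure D4:**
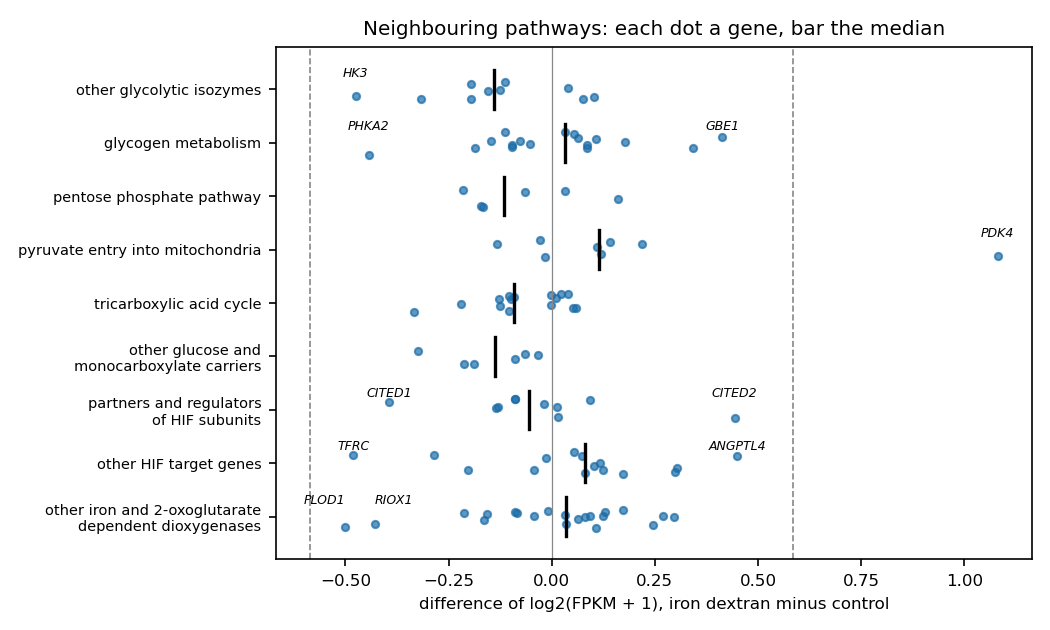
Iron dextran minus control on the log2(FPKM + 1) scale, for each gene with a mean of at least 1 FPKM in 9 lists of neighbouring pathways, with the median of each list as a black bar and 1.5-fold as dashed lines; 4 genes stand in 2 of the lists. PDK4 (1.08) is the 1 gene outside the dashed lines.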

How the data were processed

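Hippocampal RNA of 1 iron dextran and 1 control sample was analysed from the table of FPKM deposited by the authors. Per the submitters' processing notes, reads were trimmed with cutadapt 1.2.1 and handled with TopHat, on pig builds Sscrofa10.2 and susScr3; the sources used here do not give the program behind the FPKM values, the annotation or the use of strand. Columns were assigned by the letter shared with the sample title. Symbols were looked up by Ensembl ID in a name table, with 11804 of 25322 IDs found.

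Differences of log2(FPKM + 1) were computed over all 12557 genes with a mean of at least 1 FPKM, in Python 3.11.15 with pandas 2.3.3 and numpy 2.4.6, and the steps were tested on simulated data. Members past 1.5-fold were counted. Every member may be named; of each pathway list, the 2 genes with the largest absolute difference, and PDK4, are named, except 1 gene that is not reported here. Members and lists were chosen with earlier results of these data known. Alternatives were pseudocounts of 0.1 and 0.01, other limits on FPKM, 2 other folds, and 3 scalings (column median, same total, and a trimmed mean of M values with 30% of M and 5% of A values trimmed per side); centring within 20 bins of mean FPKM was chosen after seeing the data.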

Additional observations from a re-analysis of the deposited data

How the results depend on the processing

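The count of members lower by 1.5-fold or another fold tried was 0 under every alternative, beside 0.422% to 5.96% of all genes. The count of members at least 1.5-fold higher, 0 as reported, was 1 of 37 (PFKFB2) with pseudocounts of 0.1 and 0.01. Of all genes, 4.44% and 4.77% were that much higher under these. The count was 2 (PFKFB2 and HIF1A) with the same column total, beside 3.62% of all genes. It was 3 (with ARNT) when 25% higher was enough, beside 8.81% of all genes, and stayed 0 under the other alternatives. With the same column total the median was 0.1029 for all genes, beside 0.0855 for all members and 0.0531 for the glycolysis members. For lactate and pyruvate handling it was 0.0474, for HIF subunits and sensors 0.1687, and for the HIF targets 0.1565. Centred by expression bin the medians were 0.0074 for all members, 0.0099 for the glycolysis members and −0.0017 for the HIF targets. The direction of 23 of 37 members held under all 6 scalings and pseudocounts, 13 above 0 and 10 below, and that of 14 turned under at least 1. A pseudocount cannot turn a direction, and centring on the column median turned that of 0 members, so these settings add little to that count. No paired analysis was possible because each group is 1 sample, and with no replicates no sample could be left out. The number of fragments behind each value is unknown, which limits the low genes most, PFKFB2, ADM and EGLN3 among them.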
